A study of Homo sapiens with 12 samples.

Results

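Histone genes of HEK293 cells, a transformed human embryonic kidney line, were followed across 4 culture conditions of a poly-A RNA sequencing series: vehicle, oleic acid, an iron salt (ferric ammonium citrate, FAC) and the fatty acid with the salt. The series' design text gives FAC as the inducer of ferroptosis, an iron-dependent form of cell death, and oleic acid as the supplement tested against it. Each condition had 3 libraries, all 12 from 1 cell line, and neither doses nor times are stated in the labels. They do not say that the 3 libraries of a condition came from separate cultures, so p-values measure the spread between these libraries, which may be technical. Members were the gene symbols that begin with HIST1H, HIST2H, HIST3H or HIST4H (clustered genes) or with H1F, H2AF or H3F (variant genes), carry no pseudogene suffix, and have a total estimated count above 0. Of 36459 symbols in the gene-level file, 120 matched the prefixes, 30 were removed for a pseudogene suffix and 15 for a total of 0, which left 75 members, 61 clustered and 14 variant. Members were thus chosen by symbol and selected on 1 measured value, the total count. H3F3C and HIST1H1D came in with a total count of 1, and the 15 symbols just outside had none. HIST2H2BD, HIST2H2BA and HIST3H2BA are members by symbol although the GENCODE 29 annotation calls them pseudogenes.

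Clustered histone genes are transcribed mostly in S phase, and their messages normally end in a conserved stem-loop rather than a poly-A tail. The stem-loop is bound by SLBP and cut by a complex that includes the U7 snRNP. Some of these genes can instead be read through to a downstream poly-A signal, above all in cells that leave the cycle. Variant histone genes (H2A.Z, H3.3, H1.0 and others) are expressed outside S phase as well and give ordinary polyadenylated messages. The libraries were made from poly-A RNA, so the levels below are those of polyadenylated message and not of all histone message. In a bulk sample, fewer cells making a message and less message per cell cannot be told apart.

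Processed message ends shortly after the stem-loop, and read-through message holds the loop and runs on past it. The loop sequence therefore does not tell which form a gene makes. The sequences come from members that rose with FAC and, for contrast, from HIST2H2AA3, which did not pass. Lower case gives flanking bases and capitals the 16-base stem-loop, 5′ to 3′, read from the GENCODE 29 transcripts (GRCh38).
HIST2H2BE: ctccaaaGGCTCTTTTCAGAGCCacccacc
HIST2H2BD: ctccaaaGGCTCTTTTCAGGGCCacttaac
HIST2H4B: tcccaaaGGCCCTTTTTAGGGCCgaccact
HIST3H2A: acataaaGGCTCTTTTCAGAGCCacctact
HIST1H2AC: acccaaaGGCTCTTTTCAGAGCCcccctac
HIST1H2BE: acccaaaGGCTCTTTTCAGAGCCactcacc
HIST1H3H: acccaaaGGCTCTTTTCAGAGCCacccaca
HIST2H2AA3: ctcaaaaGGCTCTTTTCAGAGCCacccacg
The HIST2H2BE stem-loop with its flanks lies at chr1:149886181-149886210 on the minus strand. Its annotated transcript of 2194 bases runs on for 1729 bases after the loop and carries a poly-A signal (AATAAA or ATTAAA within 50 bases of its end). HIST2H2BD, of the same cluster, differs within the 16-base stem-loop sequence, and its longer transcript runs on for 2976 bases. The HIST2H2AA3 transcript ends 35 bases after its loop and also carries a poly-A signal near its end. A stem-loop of 1 of the 5 sequences found was present in at least 1 annotated transcript of 31 clustered genes, and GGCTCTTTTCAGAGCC was the commonest, in 18 genes. Other genes may be annotated too short to hold one.

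Promoter sequence is shown for 3 of the responding genes because they hold different sets of the motifs known from histone promoters. Each is the 250 bases before the RefSeq start (GRCh38.p14), on the gene's strand. Capitals mark 3 motifs, none of which contains another. They are the box CCAAT, which NF-Y binds, a form of the TATA box written TATAAA, and the octamer ATTTGCAT, which OCT1 binds. Each was searched on both strands, so a match on the other strand appears in capitals as its reverse complement.
HIST2H2BE: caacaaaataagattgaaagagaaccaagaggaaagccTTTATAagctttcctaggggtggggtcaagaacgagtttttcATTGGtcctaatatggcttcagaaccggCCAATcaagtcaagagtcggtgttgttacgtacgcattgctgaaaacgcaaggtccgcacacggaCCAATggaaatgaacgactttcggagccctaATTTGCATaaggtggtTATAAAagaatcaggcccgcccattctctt
HIST1H2BD: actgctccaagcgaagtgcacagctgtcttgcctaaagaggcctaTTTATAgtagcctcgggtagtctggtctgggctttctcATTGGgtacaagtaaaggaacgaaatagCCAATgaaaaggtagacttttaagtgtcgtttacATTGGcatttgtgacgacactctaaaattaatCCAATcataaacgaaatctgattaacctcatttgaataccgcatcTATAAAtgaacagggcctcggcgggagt
HIST2H4B: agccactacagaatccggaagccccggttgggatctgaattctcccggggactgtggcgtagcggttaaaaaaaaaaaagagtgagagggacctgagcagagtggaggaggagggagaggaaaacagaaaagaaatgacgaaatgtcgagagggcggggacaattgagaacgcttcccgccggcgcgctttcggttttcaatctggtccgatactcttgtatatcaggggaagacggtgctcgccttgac
These windows are chr1:149886683-149886932 (minus strand), chr6:26157871-26158120 (plus strand) and chr1:149861160-149861409 (minus strand). The HIST2H2BE window has an octamer 46 bases before the start, TATAAA at 30 and 212 bases and CCAAT at 77, 142 and 170 bases. HIST1H2BD has TATAAA and 4 CCAAT matches without the octamer, and HIST2H4B has none of the 3 motifs. RefSeq promoters of 300 bases (250 before and 50 after the start) were matched for 65 members. CCAAT was in 44 of the 53 clustered promoters, 83% against 34.6% of all 35116 promoters, but in 1 of 10 H4 promoters. TATAAA was in 36 of the 53, 67.9% against 11.5%. The octamer was in 11 of 15 clustered H2B promoters and 9 of 14 H2A promoters, against 1.77% of all. A match is a description of letters and not a binding site. Among clustered members that were tested, the octamer was in 4 of 10 promoters of genes that rose with FAC and in 5 of 12 of those that did not pass.

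Libraries held 14098216 to 18717397 estimated counts. An estimated count of 3 is worth 0.158 to 0.224 CPM (counts scaled to library size by TMM) depending on the library, and for counts under this floor a level is not distinguished from 0. This covers counting error only, since the reads carry no molecular identifiers. TFRC, the transferrin receptor whose message is known to fall when cells are iron-loaded, was at 13.3 to 22.1 CPM in the 6 libraries with FAC and at 57.8 to 134 in the 6 without, so every library matched its label on this check (log2 fold change -2.73 ± 0.18 SE, adjusted p = 3.81e-06, edgeR). All 7 kidney and HEK293 markers listed were tested, and their summed level ran from 866 to 1173 CPM with vehicle, 905 to 1329 with oleic acid, 955 to 1330 with FAC and 1270 to 1865 with both; LHX1 was among those that rose in the FAC comparison. Of 13 markers of other cell types 6 were tested, none was at 0 and none passed, with sums of 24.9 to 38.2 CPM over all libraries. Replicate 3 of oleic acid and of oleic acid + FAC stood apart by an excess of short transcripts, and the latter had 12.1% of its counts on mitochondrially encoded genes against 3.33% to 7.5% in the others.

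The clustered genes were a small part of the histone message measured. They took 16033 estimated counts in all, 2.63% of the members' total, and the 14 variant genes took 594594. Per kilobase of annotated transcript, H3F3A, which encodes H3.3, had the highest mean among variants at 828 CPM per kb. HIST1H2BK had the highest mean level among clustered genes, 15.9 CPM and 41.7 CPM per kb, and HIST2H2BE had 4.97 CPM and 2.27 CPM per kb. HIST1H2BK shares 86.3% of its 31-base windows with other genes, 74.4% with H2BFS, so its level is uncertain. Only 33 members, 23 clustered and 10 variant, had enough counts to be tested (edgeR's filterByExpr, with 14209 genes tested in all). None of the 42 others reached more than 0.975 CPM in any library. HIST1H1E, HIST1H2AI, HIST1H2BC, HIST1H2BE, HIST1H2BH, HIST2H2AA4 and HIST3H2BB reached the filter's minimum in fewer than 3 of the 6 libraries without FAC and passed through the FAC libraries, so a rise was built into their passing. Counts over the 33 tested members are descriptive for that reason.

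FAC raised clustered histone message and no variant passed. In the comparison of all 6 FAC libraries with all 6 others, averaged over oleic acid, 11 members rose and none fell at an adjusted p under 0.05 (edgeR's quasi-likelihood test, Benjamini-Hochberg over all tested genes). Of all genes tested, 3.27% rose and 5.48% fell. All 11 were clustered genes: the H2B genes HIST1H2BC, HIST1H2BD, HIST1H2BE, HIST1H2BN, HIST2H2BD and HIST2H2BE, the H2A genes HIST1H2AC and HIST3H2A, the H3 gene HIST1H3H and the H4 genes HIST2H4A and HIST2H4B. The 11 are 18% of the 61 clustered genes. The other 12 tested clustered genes had log2 fold changes above 0 and did not pass, and no member was lower at an unadjusted p under 0.05, as 13.4% of all genes were; 17 were higher, as 10.2% of all genes were. DESeq2 called 13 members and limma-voom 11, all higher. These tools called 12.5% and 8.89% of all genes they tested, in either direction. The median log2 fold change was 1.03 over the 23 tested clustered genes, 0.12 over the 10 tested variants and 0.00 over all genes. The 23 include the 7 that passed the filter through the FAC libraries, so their median is descriptive. Without replicate 3 of oleic acid and of oleic acid + FAC 12 members passed, 9 of the 11 with H1FX, H2AFX and HIST1H2BK, while 14.9% of all genes did. HIST1H2BC (1.22 ± 0.42, adjusted p = 0.0686) and HIST1H3H (0.99 ± 0.32, adjusted p = 0.051) did not pass there, by edgeR.

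**Figure D1:**
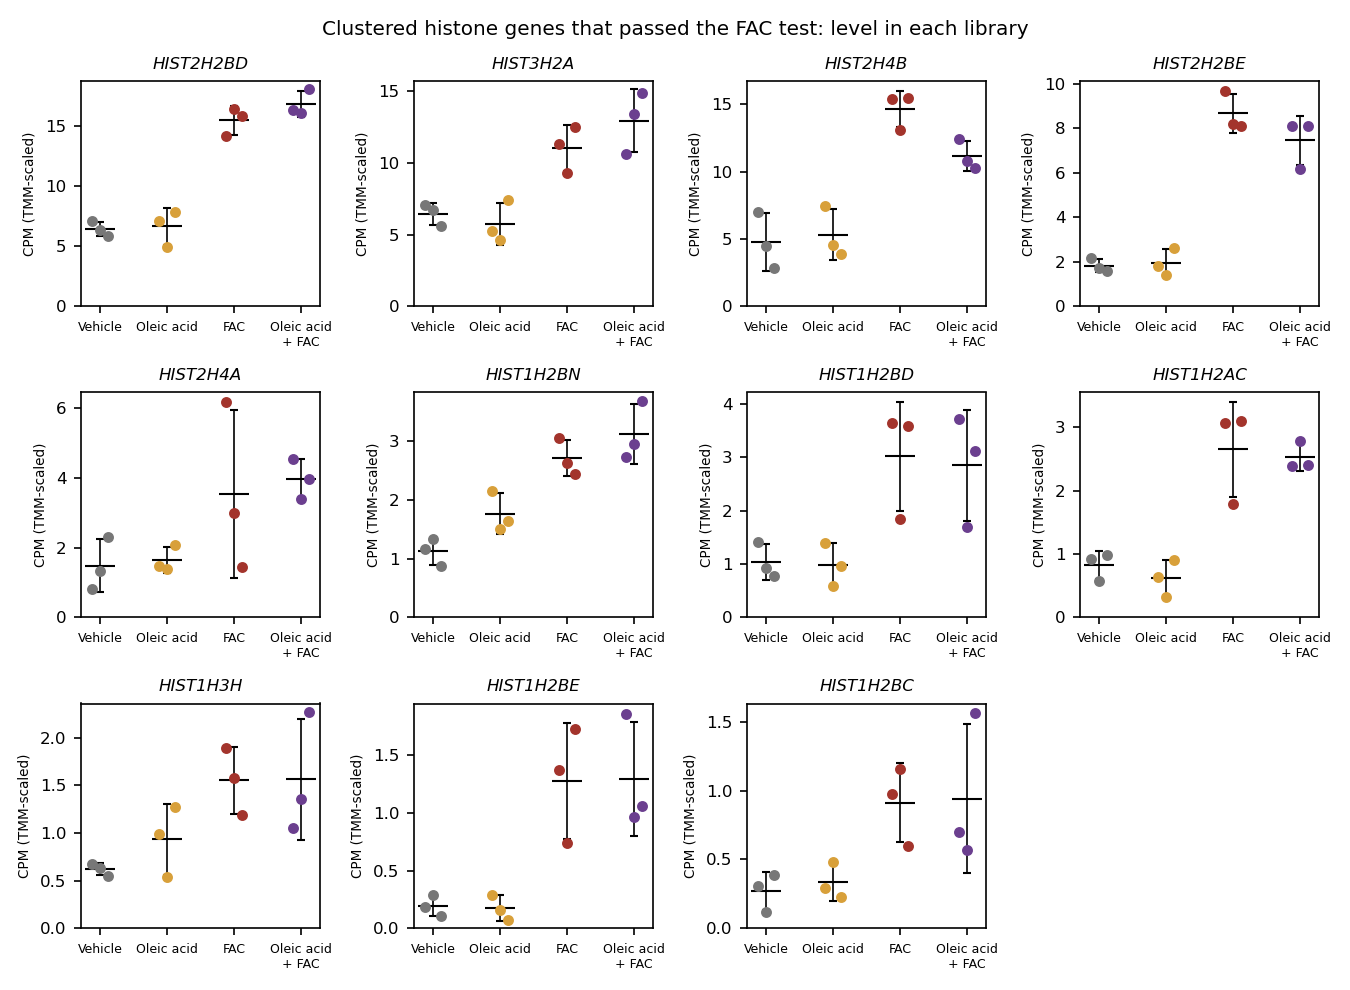
Level (CPM, TMM-scaled, linear axes from 0) of the 11 clustered histone genes that passed the FAC test, in each of the 12 libraries; points are libraries, horizontal bars group means and vertical bars SD (n = 3). In 9 of the 11 genes every FAC library lies above every library without FAC, and HIST2H4A and HIST1H3H overlap. Over all tested genes 2.8% are separated in this way. The 11 were picked by the FAC test on the same libraries, so separation is largely built in. HIST1H2BE and HIST1H2BC also passed the filter only through the FAC libraries.

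HIST2H2BE encodes an H2B and lies in the histone cluster on chromosome 1 (chr1:149884459-149886652, minus strand, 1 annotated transcript). Only 12.4% of its 31-base windows occur in another gene, so most of its length can be assigned. The 3 vehicle libraries had 2.16, 1.74 and 1.6 CPM and the 3 oleic acid libraries 1.81, 1.4 and 2.62. The FAC libraries had 9.69, 8.21 and 8.12 CPM and the oleic acid + FAC libraries 8.09, 6.19 and 8.09. Every library with FAC was above every library without it, and the oleic acid + FAC libraries lay just below the FAC libraries. The log2 fold change was 2.10 ± 0.17 (SE, adjusted p = 2.45e-05, edgeR), from a mean of 1.89 to one of 8.06 CPM. In estimated counts this is 186 over the 6 libraries without FAC and 803 over the 6 with it. It passed in all 22 alternative fits, with log2 fold changes of 2.00 to 2.23. Its FAC-against-vehicle rise was known when these genes were chosen.

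HIST2H2BD (chr1:149842875-149846486, plus strand) lies in the same cluster and shares 71.6% of its windows with HIST2H2BC, a gene without a row in the gene-level file. Its levels were 7.04, 6.37 and 5.84 CPM with vehicle, 7.12, 4.94 and 7.85 with oleic acid, 14.1, 16.4 and 15.8 with FAC and 16.3, 16 and 18 with both. All 6 FAC libraries were above the other 6, by the smallest standard error among the called members (log2 fold change 1.31 ± 0.12, adjusted p = 6.43e-05, edgeR). Which of this pair of near-copies the reads came from cannot be told apart from these counts.

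HIST1H2BE (chr6:26172059-26184655, plus strand) had the largest fold change among the called members and the fewest counts without FAC. It had 3, 5 and 2 estimated counts with vehicle and 5, 3 and 1 with oleic acid, at or near the floor, against 21, 14 and 29 with FAC and 32, 17 and 15 with both. The groups with and without FAC do not overlap (log2 fold change 2.73 ± 0.39, adjusted p = 0.0012, edgeR). HIST1H2BC was similar in depth, with 31 counts without FAC and 91 with it (1.58 ± 0.39, adjusted p = 0.025, edgeR). Both passed the filter only through the FAC libraries. HIST1H2BD went from a mean of 1.01 to one of 2.93 CPM and HIST1H2BN from 1.45 to 2.92, with no overlap in either; HIST1H2BN spans HIST1H2AK, so reads of both genes may be mixed.

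The H2A genes HIST1H2AC (chr6:26124145-26139116, plus strand) and HIST3H2A (chr1:228456979-228457873, minus strand) rose as well. HIST1H2AC had 0.927, 0.579 and 0.991 CPM with vehicle, 0.642, 0.322 and 0.897 with oleic acid, 3.06, 1.79 and 3.1 with FAC and 2.39, 2.78 and 2.41 with both. Its FAC libraries were all higher (1.85 ± 0.27, adjusted p = 0.00141, edgeR), and 1.8% of its windows are shared with other genes. HIST3H2A, of the small cluster further along chromosome 1, had 7.1, 6.71 and 5.62 CPM with vehicle and 5.26, 4.62 and 7.4 with oleic acid, against 11.3, 9.32 and 12.5 with FAC and 10.6, 13.4 and 14.9 with both (0.98 ± 0.15, adjusted p = 0.00157, edgeR). The groups did not overlap there either. Over all tested genes, 2.8% had every FAC library above every other library. Among tested clustered members it was 9 of 23, with the 7 that passed the filter through the FAC libraries included, and among tested variants 0 of 10.

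The H4 genes HIST2H4A (chr1:149832659-149839767, plus strand) and HIST2H4B (chr1:149854045-149861210, minus strand) are near-identical copies, with 98.6% and 97.2% of windows in common with each other, and kallisto's split between them moved from library to library. HIST2H4B took 54.8% to 89.8% of the pair's counts in the vehicle libraries and 71.4% to 91.5% in the FAC libraries. Summed, the pair had 7.85, 5.79 and 5.12 CPM with vehicle, 8.93, 5.96 and 5.98 with oleic acid, 21.6, 16.1 and 17 with FAC and 17, 14.2 and 14.3 with both. The sum rose without overlap (log2 fold change 1.33 ± 0.15, adjusted p = 0.000288, edgeR), so the call holds however the pair's counts are divided. HIST2H2AA3 and HIST2H2AA4, near-identical H2A copies, show the split at its plainest: HIST2H2AA3 was given 0 of 76 counts in the first vehicle library and all counts in the other 5 libraries without FAC. Taken singly neither passed (HIST2H2AA3 0.67 ± 0.50, HIST2H2AA4 4.86 ± 1.84, adjusted p = 0.456 and 0.136, edgeR). Summed, the copies ran from 2.63 to 4.7 CPM without FAC and from 5.73 to 12 with it (1.09 ± 0.22, adjusted p = 0.00959, edgeR); this sum was chosen after seeing the data. HIST2H3A and HIST2H3C, whose counts were split evenly, did not pass when summed (1.00 ± 0.32, adjusted p = 0.0737, edgeR).

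**Figure D2:**
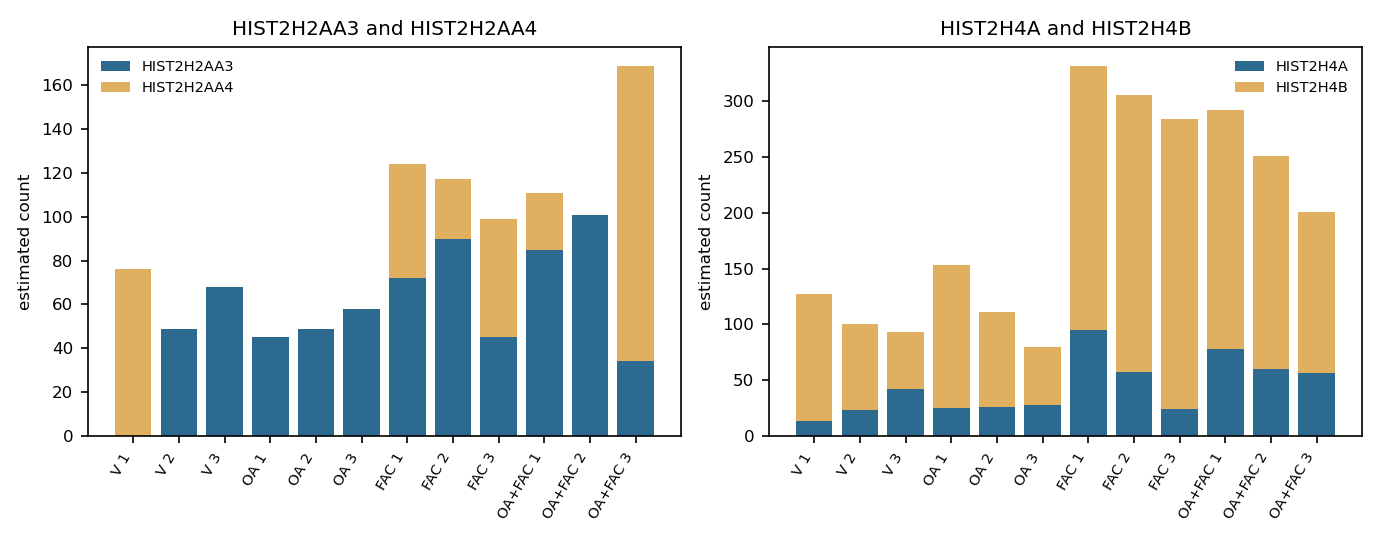
Estimated counts given to each copy of 2 near-identical pairs in each library (stacked bars from 0; V vehicle, OA oleic acid). The stacked totals are higher in the 6 FAC libraries while the division between copies, such as 0 and 76 counts for HIST2H2AA3 and HIST2H2AA4 in the first vehicle library, changes from library to library.

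Other tested clustered genes were near the threshold or far from it. HIST1H2BK had 18, 9.96 and 6.83 CPM with vehicle, 15, 8.37 and 12.4 with oleic acid, 26, 15.9 and 16.8 with FAC and 24.7, 16.8 and 19.7 with both, and the groups overlap (0.77 ± 0.23, adjusted p = 0.0559, edgeR). It passed in 7 of 22 alternative fits, among them the replicate block (0.79 ± 0.13, adjusted p = 0.00288, edgeR). HIST1H1C, a linker histone gene and the most abundant clustered H1 here, was at 0.59 ± 0.19 (adjusted p = 0.0712) and passed with the block (0.59 ± 0.17, adjusted p = 0.0326, both edgeR). The block was fitted on all 12 libraries, and 15.6% of all genes passed with it. By a rule given under the processing, whose division is not sharp, replicate numbers pair the libraries of the 3 treated groups. They do not pair those of vehicle by this rule. HIST1H3E was at 0.01 ± 0.42 (adjusted p = 0.989), and HIST2H2BF, the nearest relative of HIST2H2BE by shared windows, at 0.37 ± 0.28 (adjusted p = 0.456, all edgeR). HIST1H3H, which passed with all libraries, overlapped between groups, with 0.537 to 1.27 CPM without FAC and 1.05 to 2.27 with it, and passed in 10 of 22 alternative fits. The 38 clustered genes below the filter had 382 counts without FAC and 529 with it; 24 had more counts with FAC, 10 fewer and 4 as many, which was not tested.

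Summed over all 61 genes, clustered histone message was at 63.7, 48.4 and 41.6 CPM with vehicle, 56.3, 42.5 and 60.9 with oleic acid, 121, 98.3 and 104 with FAC and 110, 99.3 and 122 with both. The lowest FAC library was above the highest other one, and the FAC libraries' mean was 2.09 times that of the others (no test was made on the sum). Without HIST2H2BE the ratio was 2.01. Over the 50 genes not called, 38 of them untested, it was 1.66 (means of 26.6 and 44.1 CPM). Over the 38 untested genes alone it was 1.36. HIST1H2BK, whose level is uncertain, had means of 11.8 and 20 CPM within the sum of the 50. By histone type the ratio was 2.3 for H4, 2.16 for H2B, 2.05 for H2A, 1.63 for H3 and 1.51 for H1. Of the mean H4 sum, 7.99 CPM without FAC and 18.4 with it, HIST2H4B alone was given 5.04 and 12.9. By cluster it was 2.49 for HIST2 genes, 1.98 for HIST3 and 1.81 for HIST1. H2B genes supplied more than any other type, with 26.4 CPM without FAC and 56.9 with it.

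Variant histone message was far more abundant and overlapped between the groups. The 14 genes summed to 2478 to 4781 CPM with FAC and 2483 to 3654 without, with the highest value of each in the third oleic acid + FAC and the third oleic acid libraries, the pair that stood apart. H3F3A had 821, 709 and 706 CPM with vehicle, 663, 753 and 1097 with oleic acid, 840, 765 and 944 with FAC and 808, 1005 and 1709 with both (0.34 ± 0.18, adjusted p = 0.268). H2AFZ (H2A.Z) was at 0.22 ± 0.15 (adjusted p = 0.392), H3F3B, the other H3.3 gene, at 0.08 ± 0.15 (0.787), H2AFY (macroH2A1) at 0.16 ± 0.12 (0.449), H2AFY2 (macroH2A2) at -0.09 ± 0.08 (0.496) and H2AFV (H2A.Z.2) at 0.08 ± 0.09 (0.659, all edgeR). H1F0, the linker histone of resting cells, was at 0.02 ± 0.16 (adjusted p = 0.958) and H2AFJ at 0.03 ± 0.18 (0.948, both edgeR). H2AFX, the variant that is phosphorylated at DNA breaks, and H1FX were at 0.30 ± 0.15 (adjusted p = 0.239) and 0.31 ± 0.15 (0.236, both edgeR). Without replicate 3 of oleic acid and of oleic acid + FAC both passed, H2AFX at 0.36 ± 0.10 (adjusted p = 0.0247) and H1FX at 0.36 ± 0.11 (0.0424, edgeR), as they did with the length trend removed. Those fits called 14.9% and 15.9% of all genes in either direction. When the replicate block was added to that length correction, H3F3A (0.24 ± 0.07, adjusted p = 0.0326) and H2AFY (0.17 ± 0.05, adjusted p = 0.0379, both edgeR) passed as well. With both corrections 26.1% of all genes passed, whereas in the main fit 3.27% rose and 5.48% fell. H2AFX is also the only variant whose transcripts hold a stem-loop and run on past it. H2AFB1, H2AFB2, H2AFB3 and H3F3C had totals of 1 to 9 counts and were not tested.

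**Figure D3:**
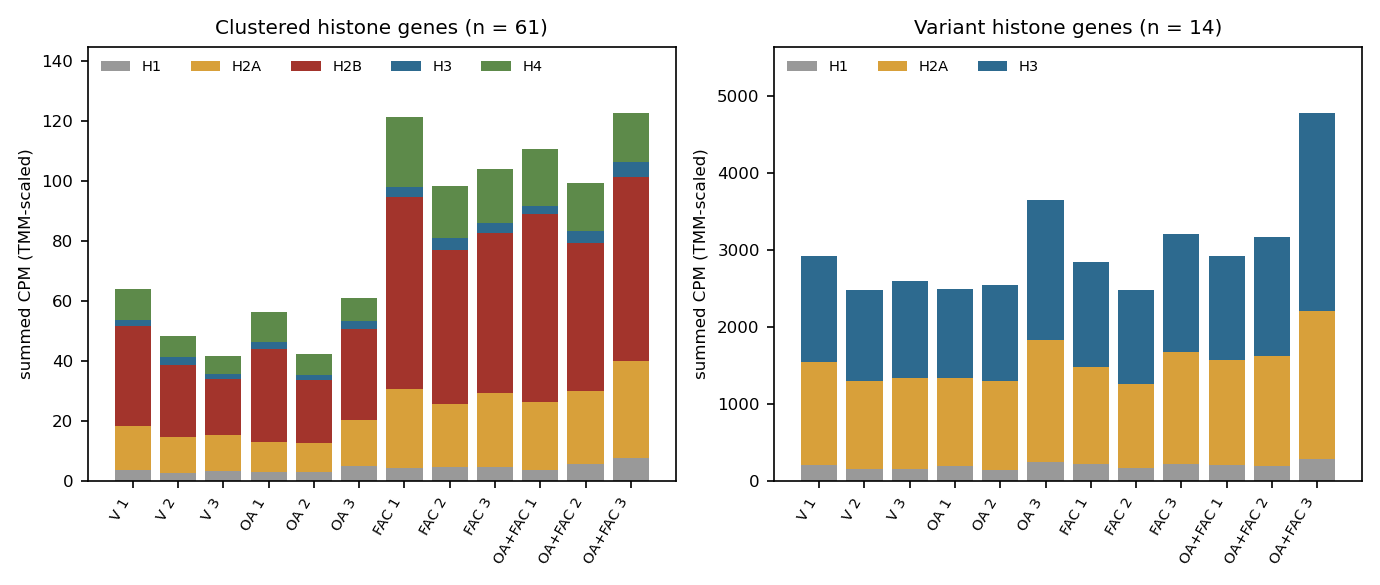
Summed level (CPM, TMM-scaled, stacked bars from 0) of the 61 clustered and the 14 variant histone genes in each library, by histone type (V vehicle, OA oleic acid). Clustered sums are 41.6 to 63.7 without FAC and 98.3 to 122 with it, whereas variant sums of 2483 to 3654 and 2478 to 4781 overlap.

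Iron given alone and iron given with oleic acid were compared with controls that share no library. Against vehicle, FAC raised 5 members, HIST1H2BE, HIST1H2BN, HIST2H2BD, HIST2H2BE and HIST2H4B, and lowered none (edgeR; 0.457% of all genes rose and 0.732% fell). In oleic acid-fed cells 5 rose, HIST1H2AC, HIST1H2BE, HIST2H2BD, HIST2H2BE and HIST3H2A, and none fell (0.76% and 1.45% of all genes). No member was lower at an unadjusted p under 0.05 in either (7.35% and 9.25% of all genes were), and DESeq2 and limma-voom called none lower. HIST2H2BE was at 2.24 ± 0.24 without oleic acid (adjusted p = 0.000774) and 1.96 ± 0.24 with it (adjusted p = 0.00204, both edgeR). HIST2H4B passed without oleic acid (1.63 ± 0.29, adjusted p = 0.0192) and not with it (1.07 ± 0.29, adjusted p = 0.0833, both edgeR), and passed against vehicle in only 1 of 6 fits that leave out a library, that without the first vehicle library. Summed with its near-copy HIST2H4A it passed in both (1.54 ± 0.21, adjusted p = 0.00409, and 1.12 ± 0.21, adjusted p = 0.0179, edgeR). Leaving out any other library of the comparison with vehicle gave 2 members, and leaving out the first vehicle library 3 (0.187% to 0.547% of all genes). In oleic acid-fed cells the replicate numbers pair the libraries, and with the number as a block 8 members rose, now with HIST1H2BD, HIST1H2BK and HIST2H4B (5.21% of all genes passed). When only the 6 libraries of that comparison were fitted no member passed (0.138% of all genes did), HIST2H2BE with an adjusted p of 0.0677 (edgeR). In oleic acid-fed cells 2 rose without the first or second oleic acid library, or without the second oleic acid + FAC library (0.381% to 0.714% of all genes). The median log2 fold change over tested clustered genes was 1.13 without oleic acid and 0.98 with it, beside 0.01 and 0.00 over all genes. In 21 of 23 tested clustered genes both values were above 0, beside 37.8% of all tested genes. The exceptions were HIST1H3E and HIST2H2BF. These medians and counts include 7 genes that passed the filter only through the FAC libraries, so a rise was built into their passing. They also count near-identical copies singly, so they are descriptive.

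The difference between these effects was tested by the interaction term, and no member passed (edgeR; 0% of all genes did, and 0.816% had an unadjusted p under 0.05; DESeq2 and limma-voom gave 0 members as well). At an unadjusted p under 0.05 the only member was HIST2H2BF (-1.38 ± 0.55, adjusted p = 1), whose levels were 0.803, 1.04 and 0.551 CPM with vehicle, 2.28, 1.32 and 1.43 with FAC, 0.817, 1.82 and 1.34 with oleic acid and 1.16, 1.02 and 0.994 with both. For HIST2H2BE the interaction was -0.29 ± 0.34 and for HIST2H4B -0.56 ± 0.41 (adjusted p = 1 for both, edgeR). Standard errors of this size leave room for differences that the 3 libraries per group do not resolve.

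**Figure D4:**
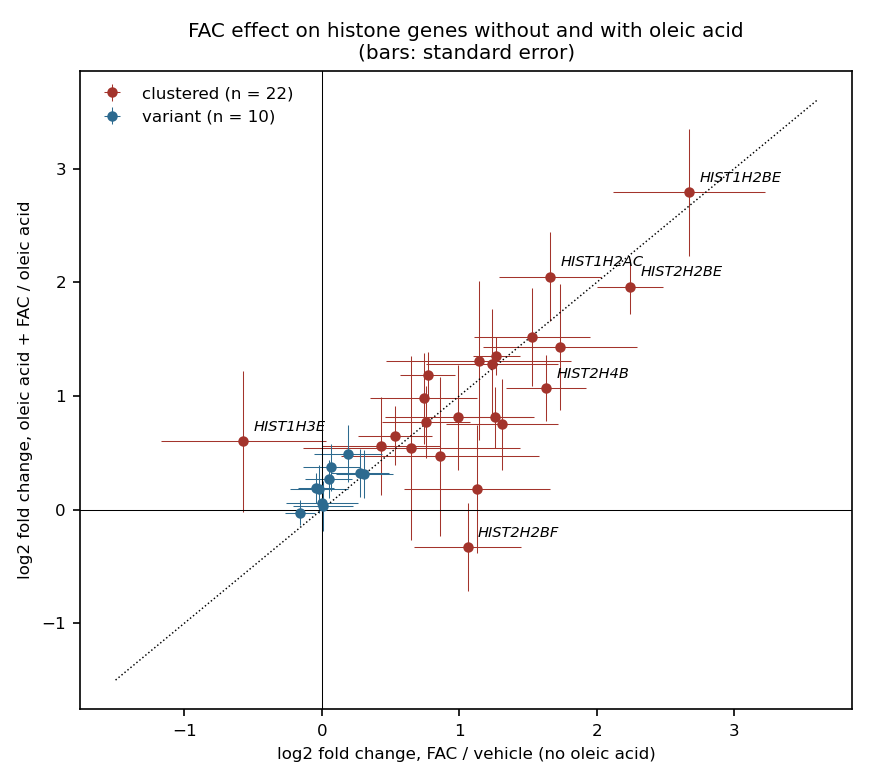
Log2 fold change of each tested histone gene for FAC against vehicle (horizontal) and for oleic acid + FAC against oleic acid (vertical), with standard errors; red clustered, blue variant, dotted line equal effects. HIST2H2AA4, at 0 counts in several libraries, is left out. With HIST2H2AA4 counted, 21 of the 23 tested clustered genes have both values above 0, beside 37.8% of all tested genes, and variants lie near the origin. The 23 include 7 genes that passed the filter only through the FAC libraries, so a rise was built into their passing.

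Oleic acid itself moved no member past the test. Against vehicle 0 members passed (0% of all genes; edgeR, DESeq2 and limma-voom), with HIST1H2BH and HIST1H2BN higher and HIST2H2AA4 lower at an unadjusted p under 0.05, which 0.83% of all genes reached. In FAC-treated cells 0 members passed (0% of all genes, the same tools), with H2AFV higher at an unadjusted p under 0.05 (4.05% of all genes). HIST2H2BE was at 0.07 ± 0.26 for oleic acid against vehicle and -0.22 ± 0.22 for oleic acid + FAC against FAC (adjusted p = 1 and 0.74, edgeR). The clustered sum with oleic acid was 1.04 times that with vehicle, and 1.03 times in the presence of FAC. Oleic acid + FAC against vehicle, which shares its libraries with comparisons above, gave 7 members higher and none lower (1.03% and 2.04% of all genes; edgeR): HIST1H2AC, HIST1H2BE, HIST1H2BN, HIST2H2BD, HIST2H2BE, HIST2H4B and HIST3H2A. Without the second vehicle, the third vehicle or second oleic acid + FAC library 2 were left (0.43% to 0.526% of all genes), and without the third oleic acid + FAC library 3 (1.27%).

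At the transcript level 2 member transcripts rose, and both run on past the stem-loop. Among clustered transcripts tested, 14 run on in this way, 8 hold no match to the loop and 4 end within 50 bases of it. With 2 calls these classes cannot be told apart. Of 92 annotated transcripts of clustered members, 35 run on more than 50 bases past a stem-loop and took 54.3% of the estimated counts, 10 end within 50 bases of it (8.99%) and 47 hold no match to the stem-loop pattern (36.7%). Many of the 47 are short, such as that of HIST1H2BK at 381 bases, which took 3148 of the 5531 counts of this class. Annotation this short may stop before a loop, so no match does not show that the message lacks one. Summed levels of the run-on transcripts were 19.7 to 27.3 CPM without FAC and 52.7 to 63.3 with it, of those that end at the loop 3.21 to 6.92 and 7.63 to 13.7, and of the others 14.3 to 26.8 and 29.3 to 42.1. Each class was higher in every FAC library, and the ratios of means were 2.46, 1.87 and 1.73 (not tested). By annotated transcript, and with that limit, the run-on share of clustered counts was 48.5% without FAC and 56.9% with it. Of 62 member transcripts tested 2 rose and none fell in the FAC comparison (edgeR; 0.13% and 0.169% of 51464 transcripts): the HIST2H2BE transcript (2.09 ± 0.23, adjusted p = 0.00832) and the longer HIST2H2BD transcript (1.31 ± 0.15, adjusted p = 0.0116). Neither passed without the second or the third vehicle library, and 1 passed without the second or the third FAC library. The main transcripts of HIST1H2BE (2.74 ± 0.53, adjusted p = 0.0829), HIST2H4B (1.36 ± 0.27, adjusted p = 0.0954) and HIST3H2A (0.96 ± 0.22, adjusted p = 0.15, edgeR) did not pass. For all 11 genes that rose, the most abundant annotated transcript carries a poly-A signal near its end, and in 8 it runs on past a stem-loop; of the 12 tested clustered genes that did not pass, 7 and 4. HIST3H2A and HIST3H2BB have 1798 and 113 counts in the gene-level file but 900 and 56 over their annotated transcripts, so their transcript values are about 50% of their gene values; the cause was not tested.

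Several clustered H2A and H2B genes stand head to head with their starts close together, and pairs of this kind are known to share a promoter region. Among 10 such pairs, HIST1H2BC and HIST1H2AC (218 bases between annotated ends) both rose. HIST2H2BE rose while its partner HIST2H2AC, 322 bases away, had 29 estimated counts without FAC and 45 with it and was not tested. HIST3H2A rose, and HIST3H2BB, 233 bases away, went from 34 counts to 79 without passing (1.22 ± 0.49, adjusted p = 0.147, edgeR). HIST2H2BD rose and HIST2H2AA3, 138 bases away, did not pass singly. The pairs HIST1H2BK with HIST1H2AH, HIST1H2BJ with HIST1H2AG and HIST1H2BL with HIST1H2AI had no gene that passed. Neither gene was tested in HIST1H2AD with HIST1H2BF, HIST1H2AM with HIST1H2BO and HIST1H2BG with HIST1H2AE.

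The gene whose levels over the 12 libraries were most like those of HIST2H2BE was HIST2H2BD (Pearson r = 0.975 of log2 CPM plus 0.5), followed by CLK3 (0.972), INSIG1 (0.970), MSMO1 (0.965) and RNF168 (0.962). The points share the FAC contrast, so this describes which genes were high and low in the same libraries. It takes no account of size: the log2 fold change with FAC ran from 0.51 for RNF168 to 2.41 for INSIG1 among these 5. Among the other called members r ran from 0.733 for HIST2H4A to 0.942 for HIST1H2AC.

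Genes of the histone message pathway outside the members mostly did not pass in the FAC comparison (edgeR for all values here), beside a median of 0.00 over all genes, of which 3.27% rose and 5.48% fell. Of 18 tested genes for 3′ end formation 0 rose and 2 fell, with a median of 0.04: ZNF473, a U7 snRNP cofactor (-0.73 ± 0.11, adjusted p = 0.00203), and CSTF2, a cleavage factor subunit (-0.39 ± 0.07, adjusted p = 0.00397). SLBP itself was at 0.06 ± 0.10 (adjusted p = 0.783). Of 16 genes for histone gene transcription 1 rose, HINFP, which binds H4 promoters (0.63 ± 0.08, adjusted p = 0.000748; 14.3 to 22.1 CPM), and 1 fell, RBL1, a pocket protein (-0.41 ± 0.12, adjusted p = 0.0486). NPAT, the coactivator of clustered genes, was at 0.05 ± 0.12 (adjusted p = 0.844). Among 16 genes of histone message decay EXOSC10, an exosome nuclease, fell (-0.30 ± 0.08, adjusted p = 0.0358). Among 32 chaperone genes UBN1, of the H3.3 loading complex, fell (-0.56 ± 0.15, adjusted p = 0.0348), and HIRA was at -0.37 ± 0.11 (adjusted p = 0.053). The general poly-A machinery had 3 higher and 2 lower of 21, among them PCF11 (0.68 ± 0.14, adjusted p = 0.0101) and CPSF4 (-0.59 ± 0.08, adjusted p = 0.000895).

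Few cell-cycle genes passed in the same comparison, as few of all genes did (3.27% rose and 5.48% fell). Of 33 S-phase genes 1 rose, the licensing factor CDT1 (0.38 ± 0.09, adjusted p = 0.0255), and 1 fell, GINS4 (-0.30 ± 0.08, adjusted p = 0.042), with a median of 0.00. Of 21 G2 and M genes 1 rose, NUSAP1 (0.31 ± 0.08, adjusted p = 0.0359), with a median of 0.07. CENPA, the centromeric H3 outside the symbol rule, was at 0.27 ± 0.17 (adjusted p = 0.356), and H2BFS, which shares windows with HIST1H2BK, at 0.81 ± 0.30 (adjusted p = 0.116, edgeR). Their part in the histone result was not tested.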

How the data were processed

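Poly-A RNA of HEK293 cells was sequenced in 4 conditions, 3 libraries each, from total RNA of high integrity, per the labels' protocols. The deposited values are estimated counts per gene and per transcript, made by the authors; the submitters' processing notes list kallisto 0.46.1, sleuth 0.30.0, bcl2fastq 2.19 and build GRCh38.p12. kallisto shares reads between near-identical transcripts by likelihood, so counts of single copies are uncertain. The counts were whole numbers and were used as such. Genes passing filterByExpr were fitted with edgeR 4.0.16 (limma 3.58.1, R 4.3.3) on all 12 libraries, TMM scaling, quasi-likelihood test, Benjamini-Hochberg adjustment over all genes, threshold 0.05; the same was done for transcripts, and the fit was tested on simulated data. Levels are TMM-scaled CPM. Errors are SE of log2 fold changes or SD over libraries. Alternatives were DESeq2 1.42.0, limma-voom, no filter, DESeq2's size factors in edgeR, a replicate block, a length trend removed, libraries left out, fits of a comparison's own libraries and a threshold of 0.10; copies summed and a TMM without members and mitochondrial genes were added after seeing the data. Same-numbered libraries deviated together between oleic acid and oleic acid + FAC (correlations 0.296 to 0.612), between FAC and oleic acid + FAC (0.221 to 0.340) and between oleic acid and FAC (0.165 to 0.332), every pair above 0.1, which counts as pairing here. By this rule vehicle was not paired with any group, though its correlations ran from -0.0718 to 0.3. Differently numbered libraries reached 0.263, for the second oleic acid with the first oleic acid + FAC library, so the division is not sharp. Sequence sharing was counted over 31-base windows of GENCODE 29 transcripts. Members, gene lists and tests were chosen with earlier results of these data known, those of HIST2H2BE and HIST2H4B among them. Genes named were these 2, members past a test, the most abundant members, members near the threshold, list members past a FAC test (up to 4 a list) with SLBP, NPAT, CENPA and HIRA, TFRC, and the 5 genes most like HIST2H2BE. The result of a single marker gene is not reported here.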

Additional observations from a re-analysis of the deposited data

Results flagged for a closer look

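HIST2H2BC has no row in the gene-level file but 2 transcripts in the transcript-level file, and no comparison above reports them. Their summed level was 6.61 to 10.8 CPM in the 6 libraries without FAC and 14.5 to 18.4 in the 6 with it, a mean of 16.4 with FAC, so the signal was above the level in the control libraries. It was noted for that reason. The transcript fit covered the whole transcript-level file, but only results of member transcripts were kept, so no test of HIST2H2BC is given. HIST2H2BC is the gene with which HIST2H2BD shares 71.6% of its windows.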

How the results depend on the processing

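The call of 11 members in the comparison of all FAC with all other libraries stayed within 1.5 times in every alternative but the length trend removed with the replicate block, which gave 18 (26.1% of all genes passed there). Leaving out each library gave 8 to 15 (5.11% to 12.5% of all genes). HIST2H2BE, HIST2H2BD, HIST1H2AC, HIST1H2BD, HIST1H2BE, HIST1H2BN and HIST3H2A passed it in all 22 alternatives and HIST2H4B in all 21 that keep it as a single gene; HIST1H2BC passed in 16, HIST2H4A in 11 of 21 and HIST1H3H in 10. For FAC against vehicle, 5 members became 8 with DESeq2 (3.65% of all genes), 8 with the replicate block (3.03%) and 9 with the length trend removed and the block (7.85%). Leaving out a library gave 2 to 3 (0.187% to 0.547%). For oleic acid + FAC against oleic acid, 5 became 8 with the block (5.21% of all genes), 9 with the length trend removed and the block (13.9%) and 0 in a fit of its own 6 libraries (0.138%). Leaving out a library gave 2 to 5 (0.381% to 3.1%). For oleic acid + FAC against vehicle, 7 became 11 with the block (10.8% of all genes). With the length trend removed and the block the count was 15 (17.4%). In a fit of its own libraries it was 4, and fewer of all genes passed there than in the main fit. Leaving out a library gave 2 to 5 (0.43% to 2.24%). By the rule given above vehicle numbers do not pair the samples, so the block there says little. It changed no other call count by as much. Transcript calls ran from 0 to 2 over fits that leave out a library. The cause of these differences was not tested. Values near 0 changed sign: H2AFJ in the FAC comparison was -0.07 with the length trend removed and -0.07 with the block as well, and -0.05 to 0.19 over fits that leave out a library; H1F0 was -0.07 to 0.12 and H3F3B -0.05 to 0.18. HIST2H2BE for oleic acid against vehicle was -0.20 without replicate 3 of oleic acid and of oleic acid + FAC and -0.19 to 0.26 over single libraries left out; HIST2H4B was -0.16 to 0.55. The summed clustered ratio was 1.97 with mitochondrially encoded genes left out of the totals. Depth limits clustered members most: 42 members were not tested, and the called HIST1H2BE had 1 to 5 counts per library without FAC.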

Other observations

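H3F3AP4, an H3.3 pseudogene that the symbol rule leaves out, had 520 to 948 estimated counts in 11 libraries and 4 in the third oleic acid + FAC library, which also had the highest H3F3A level, 1709 CPM. H3F3AP4 was looked at after its values were seen.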
